A study of Homo sapiens with 6 samples.

Results

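The genes described here carry, store and control iron. They are TF, TFRC, TFR2, HAMP, HFE, FTH1, FTL, SLC40A1, SLC11A2 and CP, chosen by symbol, 10 of the 60623 genes in the deposited tables. RNA sequencing was done on hepatocyte-like cells at day 19 of differentiation from H9, an established human embryonic stem cell line, which the labels call hepatoblasts. DMSO at 0.1%, the control, was given for 3 libraries. The other 3 came from cells exposed to HFPO-TA (hexafluoropropylene oxide trimer acid), a fluorinated ether acid. The labelled dose of HFPO-TA is 10, but its unit is garbled, and whether these cells also received DMSO is not stated. The labels give no genotype or strain beyond the line and no duration of exposure. They do not say whether replicates are separate cultures. The p-values therefore reflect only how far these libraries spread, which may be technical. The comparison addresses liver toxicity of HFPO-TA, which the series title names.

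Hepatocytes secrete transferrin (TF), which carries iron in plasma, and take iron up through transferrin receptor 1 (TFRC). Endosomal iron crosses into the cytosol through SLC11A2 (DMT1), is stored in shells of ferritin heavy (FTH1) and light (FTL) chains, and leaves through ferroportin (SLC40A1), helped by the ferroxidase ceruloplasmin (CP). The liver also senses iron: HFE and transferrin receptor 2 (TFR2) act upstream of hepcidin (HAMP), the hormone that blocks ferroportin. Inside cells, iron regulatory proteins bind hairpins called iron-responsive elements. Bound near the start of an mRNA they block its translation, and bound in the 3′ end of TFRC mRNA they slow its decay.

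The hairpins are shown because some lie before the coding sequence of a member and others behind it. The pattern searched was CNNNNNCAGTGNNNNNN on the transcript strand, and the pairs between the 5 bases before CAGTGN and the 5 after it were counted (G-T pairs allowed, since T stands for U). All matches of the members with 5 pairs are shown, and those of SLC11A2 and HFE, which had 4. Windows of 30 bases from GENCODE 29 transcripts (GRCh38) follow, with the loop CAGTGN in capitals.
FTH1 5′ UTR, chr11:61967573-61967602, minus strand: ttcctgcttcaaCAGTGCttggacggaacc
FTL 5′ UTR, chr19:48965335-48965364, plus strand: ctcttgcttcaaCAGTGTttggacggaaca
SLC40A1 5′ UTR, chr2:189580660-189580689, minus strand: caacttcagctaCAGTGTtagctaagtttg
TFRC 3′ UTR, chr3:196050978-196051007, minus strand: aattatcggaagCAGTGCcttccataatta
TFRC 3′ UTR, chr3:196050574-196050603, minus strand: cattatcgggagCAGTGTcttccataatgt
TFRC 3′ UTR, chr3:196050509-196050538, minus strand: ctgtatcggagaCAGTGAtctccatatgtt
TFRC 3′ UTR, chr3:196050462-196050491, minus strand: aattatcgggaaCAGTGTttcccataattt
SLC11A2 3′ UTR, chr12:50988268-50988297, minus strand: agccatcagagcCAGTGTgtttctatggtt
TF 3′ UTR, chr3:133792673-133792702, plus strand: tgaatgcattttCAGTGAaagattataaca
HFE 3′ UTR, chr6:26095913-26095942, plus strand: tcctccctaggcCAGTGCctctggagtcag

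TFRC held 4 matches, each in 3 of its transcripts. Of the 10 members, 5 had a match with all 5 pairs: FTH1, FTL, SLC40A1, TFRC and TF. The TF match lay in the 3′ UTR of 1 transcript. Those of FTL and SLC40A1 also lay in 1 transcript each, and that of FTH1 in 7. Among all 19922 protein-coding genes 397, or 1.99%, had such a match in some transcript. SLC11A2 paired 4 of 5 bases, as did the match in 1 HFE transcript; 13.8% of protein-coding genes reach 4 or 5 pairs, so that looser form is common. A match describes the letters and does not show binding.

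Each library gave 1 value per gene in TPM, a length-scaled share of all transcripts. The library totals were 995690 to 996186, and 15383 to 15905 genes stood at 1 TPM or more. The number of reads behind a TPM cannot be recovered, so depth is unknown and counting error cannot be stated. Since TPM is scaled per length, levels of different genes can be set side by side. All 10 hepatocyte and hepatoblast markers, TF among them, were present. They summed to 105088 to 116323 TPM with DMSO and 94645 to 102757 TPM with HFPO-TA, groups that did not overlap. Most of this was AFP (76581 and 65021 TPM, group means), while ALB was far lower (113 and 64.7 TPM, limma adjusted p = 0.0522). By group means AFP, ALB, APOB, HNF4A, SERPINA1 and TTR were lower with HFPO-TA, and APOA1, FOXA2, TDO2 and TF were higher. TDO2 (1.49 and 2.51 TPM) did not overlap between groups, nor did the lower ones except SERPINA1. Of all genes tested below, 8.55% were higher without overlap and 9.4% lower. Macrophage markers summed to 51.5 to 63.8 TPM, most of it CD68, with VSIG4 and ADGRE1 listed at 0 in all 6 libraries. Erythroid markers summed to 7.74 to 15.4 TPM, most of it EPOR, with GATA1, KLF1, HBA1, HBA2, HBB and HBG1 at 0. Pluripotent markers summed to 43.4 to 47.9 TPM with DMSO and 48.3 to 52.2 TPM with HFPO-TA. Most of this was TDGF1 (25.1 and 30.0 TPM, group means), with DPPA4 at 12.4 and 12.8 TPM. TDGF1 and DPPA4 overlapped between groups, and LIN28A was lower with HFPO-TA (7.21 and 5.98 TPM). The stromal and endothelial markers showed a difference between replicates, which is given with TF and CP below.

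Ferritin dominated the iron genes of these cells. FTL averaged 9816 TPM with DMSO and ranked 5 among all genes by mean level, taking 0.986% of all TPM. FTH1 ranked 35 at 2742 TPM. TF and TFRC followed near 100 and 79 TPM over the 6 libraries, then SLC40A1 at 42.8 and SLC11A2 at 28.5 TPM. CP at 2.95, HFE at 1.34 and TFR2 at 0.545 TPM were low, and HAMP was listed at 0 in every library. In this order the libraries of TF overlapped those of TFRC, those of CP overlapped those of HFE and those of HFE overlapped those of TFR2. SLC40A1 and SLC11A2 did not overlap (36.0 to 49.4 against 25.9 to 32.3 TPM). The 2 ferritin chains stood well apart from each other and from the rest.

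**Figure D1:**
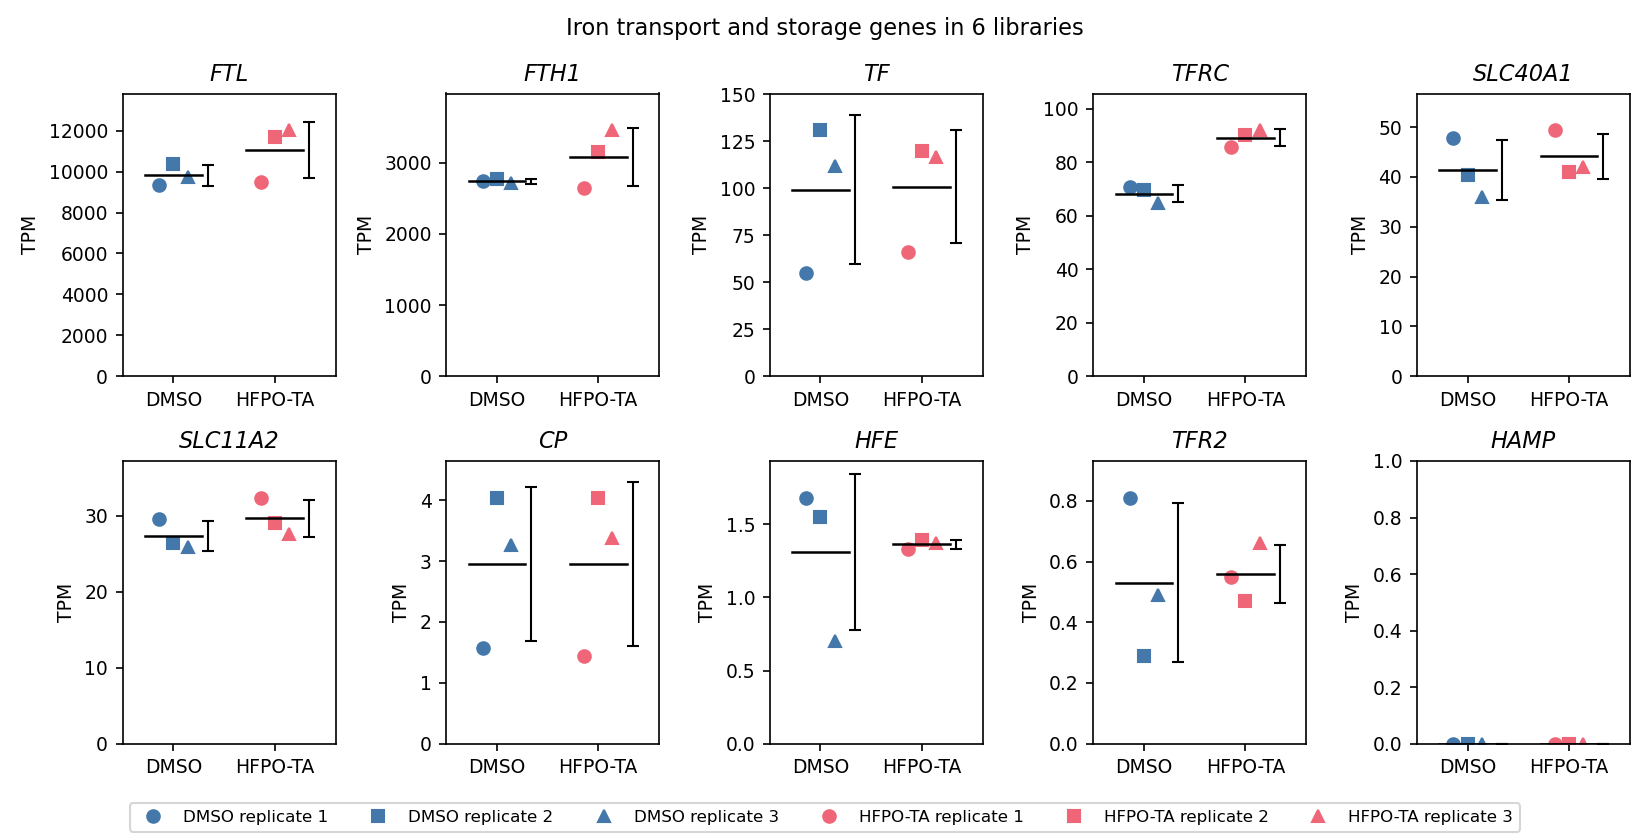
TPM of each member (vertical axes, each starting at 0) in the 3 DMSO and 3 HFPO-TA libraries; points are libraries, the horizontal line is the mean and the bar beside it 1 SD. TFRC is the only member whose HFPO-TA libraries (85.5 to 91.9 TPM) all lie above its DMSO libraries (64.7 to 70.5 TPM), and HAMP lies at 0 throughout.

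HFPO-TA was compared with DMSO by limma on log2(TPM + 1). The fit held 15664 genes, those reaching 1 TPM in 3 libraries. A gene was called when its p, adjusted by Benjamini and Hochberg's method, lay under 0.05; this held for 77 genes, or 0.492%. Of the 10 members 8 were tested, since TFR2 and HAMP fell below the filter. None of the 8 was called higher (0.185% of all tested genes were) or lower (0.306%). At an unadjusted p under 0.05 there was 1 member, TFRC, against 12% of all tested genes. The log2 fold change (HFPO-TA minus DMSO) was above 0 for 7 of the 8 tested members and for 48.3% of all tested genes. Of those 7, TF and HFE turned below 0 in some fits that left a library out, and SLC40A1 fell to 0.002 in 1 of them. The median was 0.11 over the 8 and -0.01 over all tested genes.

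Uptake comes first. TFRC encodes the receptor that brings transferrin-bound iron into the cell and lies on chromosome 3 from 196027183 to 196082189 (GENCODE 29, minus strand). It stood at 70.5, 69.5 and 64.7 TPM in the DMSO libraries and at 85.5, 90.2 and 91.9 TPM in the HFPO-TA libraries. All 3 HFPO-TA libraries lay above all 3 DMSO libraries, as they did for 8.55% of all tested genes. TFRC was the 1 tested member of 8 without overlap in either direction, against 17.9% of all tested genes. The means were 68.3 ± 3.11 and 89.2 ± 3.31 TPM (SD, n = 3 each), a ratio of 1.31. The log2 fold change was 0.38 (SE 0.07, 95% confidence interval 0.23 to 0.54), and limma's adjusted p of 0.063 missed the threshold. limma called TFRC with a mean of at least 5 TPM as the filter (adjusted p = 0.0449), with a term that sets replicate 1 apart (0.045) and without HFPO-TA replicate 1 (0.0397). Those 3 fits called 1.02%, 1.32% and 1.86% of all genes they tested. The hepatocyte marker sum given above, most of it AFP, was lower in every HFPO-TA library than in every DMSO library. Its part in the TFRC difference was not tested. Over all 19 fits the log2 fold change of TFRC stayed between 0.34 and 0.43 and its adjusted p between 0.0397 and 0.287. Changes of filter, variance estimate or terms alone cannot move the fold change in this balanced design.

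The genes whose profile lay nearest to that of TFRC, measured as the root mean square difference of centred log2 values over the 6 libraries, were PPTC7 (0.03), CYB5A (0.03) and HADH (0.04). PPTC7, a mitochondrial phosphatase, went from 9.51 to 12.7 TPM. CYB5A, cytochrome b5, went from 286 to 379 TPM. HADH, an enzyme of mitochondrial fatty acid oxidation, went from 86.0 to 115 TPM. limma called CYB5A (adjusted p = 0.0418) and HADH (0.0476) but not PPTC7 (0.163).

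SLC11A2, the transporter that moves iron out of endosomes, lies on chromosome 12 from 50979401 to 51028566. It stood at 29.5, 26.3 and 25.9 TPM with DMSO and at 32.3, 29 and 27.6 TPM with HFPO-TA. The groups overlapped (27.3 ± 1.97 and 29.7 ± 2.43 TPM, SD, n = 3 each). Its log2 fold change was 0.12 (95% confidence interval -0.10 to 0.33, limma adjusted p = 0.696). With 1 library left out it ran from 0.054 (without HFPO-TA replicate 1) to 0.173 (without DMSO replicate 1).

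Storage came next. FTL, the light chain of ferritin, lies on chromosome 19 from 48965301 to 48966878. It stood at 9339, 10377 and 9734 TPM with DMSO and at 9488, 11693 and 12015 TPM with HFPO-TA. HFPO-TA replicates 2 and 3 lay above every DMSO library, and HFPO-TA replicate 1 lay among them. FTH1, the heavy chain with the ferroxidase site, lies on chromosome 11 from 61959718 to 61967660. It stood at 2738, 2776 and 2710 TPM with DMSO and at 2647, 3155 and 3457 TPM with HFPO-TA, with replicate 1 below all DMSO libraries and the other 2 above them. The log2 fold changes were 0.17 for FTL (SE 0.09, 95% confidence interval -0.05 to 0.38) and 0.16 for FTH1 (SE 0.09, interval -0.05 to 0.37), with a limma adjusted p of 0.536 each. Without HFPO-TA replicate 1 limma called both, at log2 fold changes of 0.27 (adjusted p = 0.044 for FTL and 0.045 for FTH1), in the fit that called 1.86% of all tested genes. Without HFPO-TA replicate 3 the values fell to 0.10 for FTL (adjusted p = 0.843) and 0.08 for FTH1 (0.868). With replicates 2 and 3 of both groups alone the values were 0.24 and 0.27, and neither was called (adjusted p = 0.0603 and 0.0772), where 1.42% of all tested genes were.

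Both chains kept nearly the same ratio to each other. FTL divided by FTH1 was 3.41, 3.74 and 3.59 in the DMSO libraries and 3.59, 3.71 and 3.48 in the HFPO-TA libraries. The group means of 3.58 ± 0.16 and 3.59 ± 0.12 (SD, n = 3 each) differed by less than the spread between libraries. Ferritin genes have many processed pseudogenes. The 24 FTH1 and 16 FTL pseudogene entries summed to at most 3.93 TPM and 3.90 TPM in a library, 0.136% and 0.0376% of the parent gene at most. Reads of near-identical copies may still have been divided upstream, so exact levels of FTH1 and FTL are uncertain to that extent.

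Export followed. SLC40A1, ferroportin, the iron exporter, lies on chromosome 2 from 189560579 to 189583758. It stood at 47.8, 40.3 and 36.0 TPM with DMSO and at 49.4, 41.0 and 42.0 TPM with HFPO-TA. In both groups replicate 1 was the highest library. The log2 fold change was 0.10 (95% confidence interval -0.18 to 0.37, limma adjusted p = 0.821). Leaving out DMSO replicate 3 gave 0.002, leaving out DMSO replicate 1 gave 0.202, the lowest and highest of 6 such values, and leaving out HFPO-TA replicate 1 gave 0.013.

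TF and CP, the plasma carrier and the plasma ferroxidase, varied more between replicates than between groups. TF, on chromosome 3 from 133745956 to 133796640, stood at 55.0, 131 and 112 TPM with DMSO and at 66.2, 120 and 117 TPM with HFPO-TA. CP, on chromosome 3 from 149162410 to 149222055, stood at 1.57, 4.04 and 3.26 TPM with DMSO and at 1.44, 4.03 and 3.38 TPM with HFPO-TA. In each gene replicate 1 of both groups lay below the other 4 libraries, as it did in 4.83% of all tested genes. The group means were 99.3 ± 39.5 and 101 ± 30.1 TPM for TF and 2.96 ± 1.26 and 2.95 ± 1.35 TPM for CP (SD, n = 3 each). The intervals of their log2 fold changes were wide, -0.93 to 1.06 for TF (limma adjusted p = 0.97) and -0.80 to 0.77 for CP (0.993). For both the direction turned with the library left out, so none is given.

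Replicate 1 of both groups also stood apart in some markers of other cell types. Stromal and stellate markers (COL1A1, COL1A2, COL3A1, ACTA2, PDGFRB and DCN) summed to 1710 TPM in DMSO replicate 1 and 1899 TPM in HFPO-TA replicate 1, and to 899 to 1264 TPM in the other 4 libraries. COL1A1, COL1A2, COL3A1 and DCN were each higher in both replicate 1 libraries than in the other 4, while ACTA2 and PDGFRB overlapped. Endothelial markers summed to 54.7 and 58.8 TPM in the replicate 1 libraries and to 39.0 to 44.7 TPM in the others. That sum rested on KDR (39.4 and 46.7 against 22.5 to 27.0 TPM). PECAM1 was lower in both replicate 1 libraries (10.2 and 7.04 against 10.8 to 14.4 TPM), and CDH5 and TEK overlapped. FTL was lower in both replicate 1 libraries than in the other 4, and SLC40A1 and SLC11A2 were higher; replicate 1 was higher in this way in 20% of all tested genes. The part of these markers in the values of TF, CP, FTL, SLC40A1 and SLC11A2 was not tested. In bulk RNA fewer cells of a type and less RNA per cell cannot be told apart. A letter in the column headers, which the labels do not explain, also parts replicate 1 from replicates 2 and 3.

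**Figure D2:**
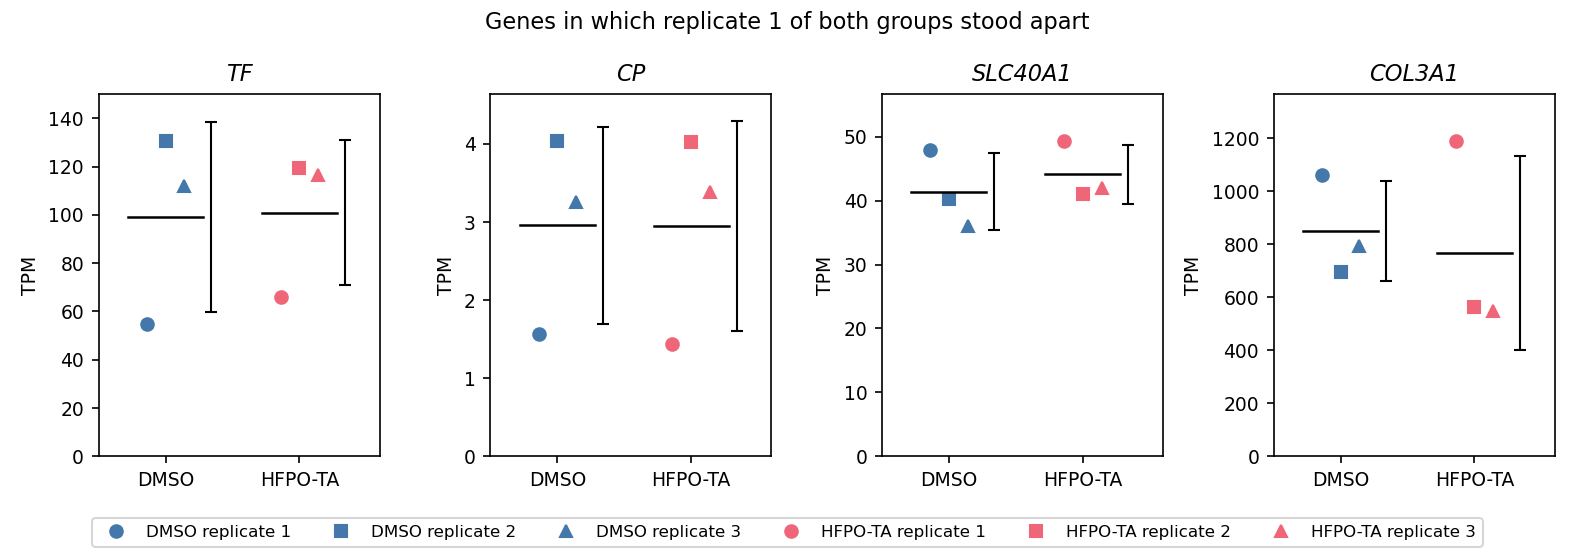
TPM of TF, CP, SLC40A1 and the stromal collagen gene COL3A1 (vertical axes, each starting at 0) by group; points are libraries, lines are means and bars 1 SD. The circles, replicate 1 of each group, are lowest in TF (55.0 and 66.2 TPM) and CP (1.57 and 1.44 TPM) and highest in SLC40A1 (47.8 and 49.4 TPM) and COL3A1 (1061 and 1191 TPM).

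TF shares exon sequence on its own strand with SRPRB, a receptor subunit of the secretory pathway, and with the pseudogene TFP1. SRPRB stood at 82.5 and 89.7 TPM (group means), a level near that of TF, and TFP1 at 0.857 and 1.09 TPM, so the level of TF is uncertain. SRPRB was at 87.5, 81.3 and 78.5 TPM with DMSO and at 77.8, 92.0 and 99.3 TPM with HFPO-TA, so its replicate 1 was highest in one group and lowest in the other. CP overlaps exons of HPS3 on the opposite strand (15.5 and 17.3 TPM), and FTH1 those of BEST1 (0.85 and 0.893 TPM). Strand is not given in the sources used here, so reads from such pairs cannot be told apart, which matters for the low level of CP.

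Hepcidin (HAMP) and the genes that act upstream of it, HFE and TFR2, were scarcely expressed. HAMP, on chromosome 19 from 35280716 to 35285143, was listed at 0 in all 6 libraries. TFR2, on chromosome 7 from 100620416 to 100642779, stood at 0.81, 0.29 and 0.49 TPM with DMSO and at 0.55, 0.47 and 0.66 TPM with HFPO-TA. HFE, on chromosome 6 from 26087281 to 26098343, stood at 1.68, 1.55 and 0.70 TPM with DMSO and at 1.33, 1.39 and 1.37 TPM with HFPO-TA. The 3 HFPO-TA libraries of HFE lay between DMSO replicate 3 and the other 2 DMSO libraries (log2 fold change 0.06, 95% confidence interval -0.43 to 0.55, limma adjusted p = 0.943). TFRC exceeded TFR2 by 87.1 to 240 times within a library, a range that rests on TFR2 values below 1 TPM and is imprecise. The group means of that ratio, 153 ± 78.4 and 162 ± 26.9 (SD, n = 3 each), differed by less than the spread.

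**Figure D3:**
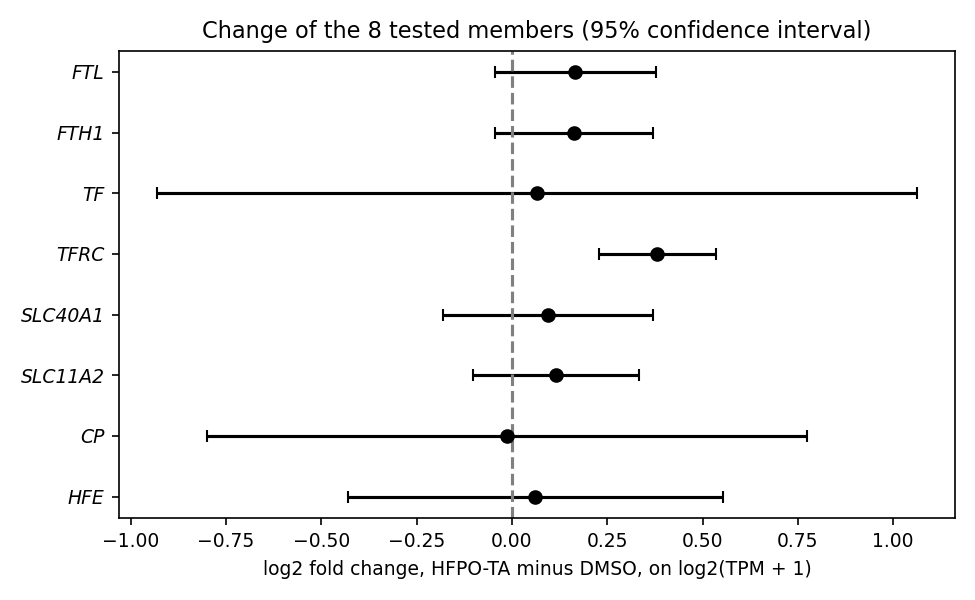
Log2 fold change on log2(TPM + 1), HFPO-TA minus DMSO, of the 8 tested members (points) with the 95% confidence interval from limma (bars); the dashed line marks 0. The interval of TFRC (0.23 to 0.54) lies above 0, before adjustment for the genes tested, and those of TF and CP are the widest.

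Other genes of iron handling were read from 7 lists with 97 genes, of which 88 were tested. limma called 1 of them higher, GDF15, and 0 lower, so 1.14% of the tested list genes were called beside 0.492% of all tested genes. Without overlap between groups, 13 were higher (8.55% of all tested genes were) and 12 lower (9.4%). In either direction this was 28.4% of the tested list genes, beside 17.9% of all tested genes. The lists were chosen with earlier results of these data known. The median log2 fold change of the tested list genes was 0.00. The list on hepcidin control held GDF15, a secreted stress factor that has been linked to hepcidin. It rose from 125 ± 11.4 to 270 ± 55.4 TPM (SD, n = 3 each; log2 fold change 1.09, SE 0.15, limma adjusted p = 0.0418). That call was lost with the replicate number as a block (adjusted p = 0.108), with either rescaling (0.07 and 0.0633), without a filter (0.139), with a minimum of 0.1 TPM (0.0571), with neither trended nor robust variance (0.109) and in 5 of the 6 fits that left a library out. Its log2 fold change stayed between 0.98 and 1.30 in all 19 fits. Fits that changed only the filter, the variance estimate or the terms cannot move this value in a balanced design. The block called 0.192% of all tested genes and the rescalings 0.204% and 0.249%.

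Within hepcidin control the other 23 tested genes did not pass. TMPRSS6, the liver protease that restrains hepcidin, was chosen here after its values were seen. It stood at 76.7, 75.4 and 80.5 TPM with DMSO and at 59.0, 60.2 and 52.1 TPM with HFPO-TA, without overlap. Its log2 fold change was -0.44 (SE 0.08, limma adjusted p = 0.0644), and limma called it in the same 3 alternative fits as TFRC (0.0449, 0.0485 and 0.0471). HJV, the co-receptor that senses BMP ligands, stood at 0.34 ± 0.16 and 0.467 ± 0.396 TPM and was below the filter. BMP6, its ligand in the iron response, stood at 1.99 ± 0.18 and 1.90 ± 0.42 TPM, and ID1, a target of BMP signals, at 99.7 ± 10.96 and 94.1 ± 4.87 TPM (SD, n = 3 each). Without overlap, 3 tested genes of this list were higher (8.55% of all tested genes were) and 5 lower (9.4%). The 5 were BMP2, ACVR1, SMAD9, FGL1 and TMPRSS6, and the 3 were GDF15, SMAD4 and CEBPA. SMAD4 stood at 23.7 and 28.8 TPM (group means, limma adjusted p = 0.396). SMAD1, SMAD5, BMP4 and ACVR2A overlapped between groups. ID3 and ID2, outside the lists, were chosen after their values were seen. limma called ID3 lower (group means 134 and 79.1 TPM, adjusted p = 0.0297) but not ID2 (243 and 185 TPM, 0.0726).

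Among genes of uptake and vesicle iron (11 of 15 tested, 0 called, median -0.02) the smallest p belonged to STEAP3, the endosomal reductase that readies iron for SLC11A2. It stood at 3.13, 2.80 and 3.32 TPM with DMSO and at 6.48, 5.45 and 5.77 TPM with HFPO-TA. The groups did not overlap (log2 fold change 0.76, SE 0.13, limma adjusted p = 0.0644), and limma called it with the term parting replicate 1 (adjusted p = 0.045). CYBRD1, a ferric reductase chosen after its values were seen, stood at 32.9 ± 2.91 and 27.3 ± 1.36 TPM (adjusted p = 0.295).

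The iron regulatory proteins and their control (6 of 6 tested, 0 called, median 0.05) included ACO1, the protein that becomes iron regulatory protein 1 when it loses its iron-sulfur cluster. ACO1 stood at 60.1, 65.3 and 58.2 TPM with DMSO and at 62.6, 82.3 and 82.8 TPM with HFPO-TA (limma adjusted p = 0.358). HFPO-TA replicates 2 and 3 lay above every DMSO library and replicate 1 among them. FTL shared this placement but not the full order of the libraries, and a link between FTL and ACO1 was not tested. Without HFPO-TA replicate 1 limma called ACO1 (adjusted p = 0.0431). IREB2, iron regulatory protein 2, stood at 22.9 ± 1.70 and 25.2 ± 2.002 TPM, and FBXL5, which marks it for degradation, at 51.0 ± 2.23 and 54.2 ± 4.97 TPM (SD, n = 3 each). Neither was called (adjusted p = 0.661 and 0.771).

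For ferritin handling and iron chaperones (6 of 7 tested, 0 called, median 0.02) GLRX3, a cytosolic glutaredoxin, had the smallest p, at 46.3 ± 0.67 and 52.9 ± 3.25 TPM (adjusted p = 0.348). NCOA4, the receptor that sends ferritin to lysosomes, stood at 64.2 ± 1.81 and 66.2 ± 1.34 TPM. PCBP3 stood at 29.5 TPM in DMSO replicate 1 and at 1.52 to 2.09 TPM in the other 5 libraries.

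In export and copper (5 of 6 tested, 0 called, median 0.00) HEPH, a membrane ferroxidase related to CP, stood at 187, 185 and 183 TPM with DMSO and at 158, 151 and 146 TPM with HFPO-TA. Its groups did not overlap (log2 fold change -0.29, SE 0.06, limma adjusted p = 0.0814), and limma called it without HFPO-TA replicate 1 (0.042) and with the term parting replicate 1 (0.0445). Of HEPH and CP, HEPH was thus the more abundant, at 168 TPM over the 6 libraries beside 2.95 TPM for CP. The level of CP is uncertain because of its overlap with HPS3.

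Heme genes (19 of 19 tested, 0 called, median 0.05) had FLVCR2, a membrane transporter, at the smallest p, with 6.93 ± 0.83 and 10.3 ± 0.58 TPM (limma adjusted p = 0.128). ALAS1, the first enzyme of heme synthesis, and HP, the plasma binder of free hemoglobin, were chosen after their values were seen. ALAS1 stood at 74.7 ± 4.35 and 95.1 ± 7.75 TPM (adjusted p = 0.13). HP stood at 74.3, 65.8 and 75.4 TPM with DMSO and at 23.2, 50.8 and 45.4 TPM with HFPO-TA (adjusted p = 0.277), without overlap. Without HFPO-TA replicate 1 limma called HP (adjusted p = 0.0334), at a log2 fold change of -0.57 in place of -0.91. HMOX1, which breaks heme down and frees its iron, stood at 33.5 ± 3.44 and 32.7 ± 6.11 TPM (adjusted p = 0.935). In mitochondrial iron and iron-sulfur assembly (17 of 17 tested, 0 called, median 0.03) ISCA1, an assembly factor, stood at 22.7 ± 1.05 and 28.5 ± 3.35 TPM (SD, n = 3 each; adjusted p = 0.272).

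**Figure D4:**
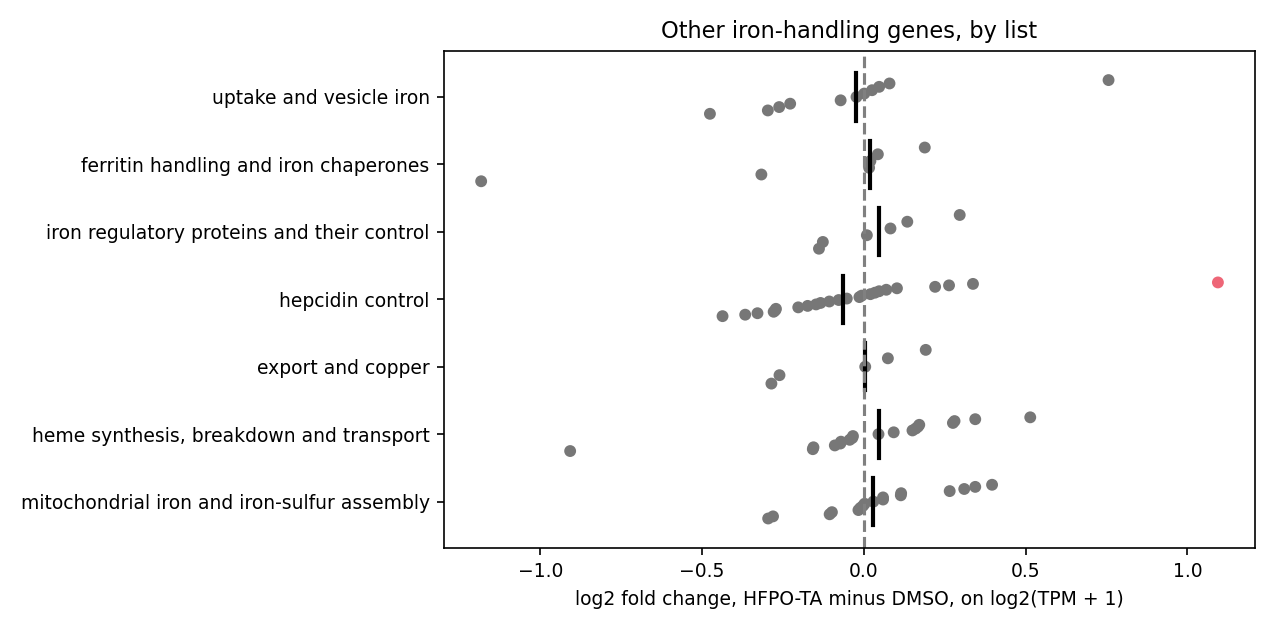
Log2 fold change on log2(TPM + 1), HFPO-TA minus DMSO (horizontal axis), of the 88 tested genes of the 7 iron lists; each point is a gene, the black bar is the list's median, the red point is the called gene, GDF15, and the dashed line marks 0. The medians lie between -0.07 and 0.05, close to the median of all tested genes (-0.01).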

How the data were processed

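Values came from 6 tables, 1 per library, with 60623 genes each. The deposited column is headed FPKM but sums to 995690 to 996186 in each library, so the authors' values were treated as TPM. Per the submitters' processing notes the tools were HISAT, Bowtie2 and RSEM and the build was GRCh38.p13; versions and roles are absent there. The annotation and strandedness were not given in the sources used here.

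A count test was the first choice in the design; as the values are TPM, the stated limma test was used. Genes with at least 1 TPM in 3 libraries (15664) were fitted as log2(TPM + 1) with limma 3.58.1 in R 4.3.3, treatment as the only term, trended and robust variance. Fold changes on this scale understate low genes. The fit was tested on simulated data. Alternatives changed the pseudocount, filter, variance estimate, scaling, terms and libraries. Positions and transcripts are from GENCODE 29, which holds 58516 of the gene identifiers. Python 3.11.15 and matplotlib 3.10.9 made the plots.

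The members and lists were chosen with earlier results of these data known. All members are named by rule; of each list the called genes, or else the gene with the smallest p and a mean of at least 2 TPM, and the 3 genes nearest in profile to the member with the smallest p. Other genes named from the lists, PCBP3, NCOA4, IREB2, FBXL5, HJV, BMP6, ID1 and HMOX1 among them, were chosen after their values were seen. No pair of libraries shared most of its values.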

Additional observations from a re-analysis of the deposited data

How the results depend on the processing

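Called genes numbered 77, against 10 without a filter, 29 with a minimum of 0.1 TPM, 11 with neither trend nor robust variance, 32 and 39 with median-of-ratios and upper-quartile scaling, 207 with a term for the header letter, 222 with replicates 2 and 3 alone and 6 to 291 with 1 library left out. Of these, 29 were called higher, against 6, 12, 8, 12, 14, 72 and 80 under those settings in that order and 6 to 94 with 1 library left out. Members called went from 0 to 1 (TFRC) with a mean of at least 5 TPM as the filter or the letter term, and were 0 to 3 with 1 library left out (TFRC, FTL and FTH1 without HFPO-TA replicate 1). List genes called went from 1 to 0 without a filter, with the 0.1 TPM minimum, with neither trend nor robust variance and with both scalings, to 2 with the stricter filter (GDF15 and TMPRSS6), to 4 with the letter term (also HEPH and STEAP3), and were 0 to 5 with 1 library left out. The cause was not tested. With replicates 2 and 3 alone the sign turned for TF (-0.034) and CP (0.019). With 1 library left out the log2 fold change ran from -0.309 to 0.341 for TF, -0.296 to 0.302 for CP and -0.146 to 0.183 for HFE. TFRC, FTL, FTH1, SLC40A1 and SLC11A2 had a value above 0 in all 19 fits, the lowest being 0.002 for SLC40A1, without DMSO replicate 3. Fits that changed only the filter, the variance estimate or the terms repeat the main value by design.

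The replicate number as a block gave 30 called genes (12 higher), 0 members and 0 list genes, with GDF15 losing its call. Deviations of same-numbered libraries correlated at 0.184, 0.123 and 0.028 for replicates 1, 2 and 3. Those of differently numbered libraries correlated at -0.158 to 0.068. Pairing by number was not adopted in the main fit. Adding pseudogenes to FTH1 and FTL changed no call. TFR2 could be fitted only with a lower filter (adjusted p = 0.963), and HAMP in no fit; CP, HFE and STEAP3 fall below the filter of a mean of 5 TPM. Depth is unknown, so levels near 1 TPM, as for HFE, carry an error that cannot be stated.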
